A study of Mus musculus with 4 samples.

Results

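The genes described here are the mouse collagen genes, taken as every gene on an assembled chromosome whose symbol is Col, a number, the letter a and a second number. This rule found 44 genes in 62 transcript rows, of 26125 gene symbols on assembled chromosomes, of which 20992 had a coding part. The study mapped RNA polymerase I (Pol I, antibody labelled Pol I, SCB) in the mouse embryonic stem cell line C64 by CUT&Tag, a method that uses an antibody to place a transposase, and so sequencing adapters, next to a bound protein. Its 4 libraries came from cells given 500 nM auxin for 6 h (2 libraries) and from untreated control cells of the same line (2 libraries). Auxin is used in animal cells to remove proteins that carry an auxin-inducible degron, and the labels name neither such a protein nor separate cultures for the replicates. What was analysed here is the transcript annotation of the series, which holds positions and exon blocks on mouse build mm10 and no value for any library, so nothing below compares auxin with control cells. The values are fixed coordinates with no replicate error, and they are given as a description without tests.

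Collagens are proteins of the extracellular matrix in which 3 chains wind around each other into a triple helix. Each chain carries a long repeat of glycine followed by 2 other residues, and because glycine is the only residue small enough for the centre of the helix, the repeat unit in the gene is 3 codons, or 9 bases. Fibril-forming chains have a long unbroken helix and build the cross-striated fibrils of bone, skin, tendon and cartilage. Basement membrane chains have an interrupted helix and form sheets under epithelia, network chains have short helices, and FACIT chains (fibril-associated collagens with interrupted triple helices) sit on the surface of fibrils. By these classes, 11 genes were fibrillar, 6 basement membrane, 3 network and 9 FACIT. A further 6 were beaded filament genes (type VI), 2 were multiplexins (types XV and XVIII), 4 encode transmembrane collagens and 3 were grouped as anchoring and other collagens.

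The repeat can be read in the reference sequence where a RefSeq window of build GRCm38.p6 happens to cover a coding exon of a collagen. The exons of Col2a1, Col7a1 and Col4a6 below are shown because they carry the glycine repeat, in Col4a6 with an interruption. The exon of Col5a1 is shown because it lacks that repeat. The printed exons run 5′ to 3′ on the strand of the gene, and capitals mark in-frame codons that begin with GG, all of which encode glycine. The first is coding exon 17 of Col2a1, the chain of cartilage type II collagen (chr15:97991344-97991388, minus strand, 45 bases). The second is coding exon 62 of Col7a1, the anchoring fibril chain of the skin (chr9:108969951-108969986, plus strand, 36 bases). The third is coding exon 33 of Col4a6, a basement membrane chain (chrX:141182816-141182890, minus strand, 75 bases). The fourth is coding exon 65 of Col5a1, which lies after the helix in a fibrillar gene (chr2:28032591-28032824, plus strand, 234 bases).
Col2a1 exon 17: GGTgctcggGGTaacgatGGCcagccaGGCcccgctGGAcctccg
Col7a1 exon 62: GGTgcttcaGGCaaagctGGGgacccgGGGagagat
Col4a6 exon 33: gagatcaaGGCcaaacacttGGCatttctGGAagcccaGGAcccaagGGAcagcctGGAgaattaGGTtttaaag
Col5a1 exon 65: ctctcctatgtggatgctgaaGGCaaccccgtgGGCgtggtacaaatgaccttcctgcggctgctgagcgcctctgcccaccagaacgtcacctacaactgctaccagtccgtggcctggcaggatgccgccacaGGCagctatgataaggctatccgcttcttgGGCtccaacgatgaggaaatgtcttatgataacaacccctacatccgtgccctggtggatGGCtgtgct
The Col2a1 exon opened with a glycine codon and had 5 of them among its 15 codons, each 3 codons after the last. The Col7a1 exon did the same with 4 of 12 codons. The Col4a6 exon began inside a codon, with 2 bases before its first whole codon and 1 base after its last. It held 7 glycine codons of 24, and 5 of the 6 steps between neighbours were 3 codons long, with 1 interruption. The Col5a1 exon is also a multiple of 9 in length (26 units of 9), yet only 5 of its 78 codons were glycine codons and 0 of the 4 steps between them were 3 codons long. A length that is a multiple of 9 therefore does not by itself mark a helix exon. Conversely, the Col4a6 exon carries the repeat, and its length of 75 bases is not a multiple of 9. A further covered exon, coding exon 34 of Col20a1 (168 bases), is not printed. It held 4 glycine codons of 55, and 1 of the 3 steps between them was 3 codons long.

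In each gene the transcript with the longest coding part was used, and lengths were counted over internal coding exons, meaning exons that are coding from end to end and are neither the first nor the last coding exon. The 44 collagen genes held 1918 such exons in 41 genes, against 155329 in the 20948 other coding genes. A length that is a multiple of 9 bases was found in 1222 of the 1918 collagen exons (63.7%), against 13.7% in the other genes (21270 exons). Lengths of exactly 54 bases made up 469 of the collagen exons (24.5%), against 0.402% in other genes, and lengths of exactly 45 bases made up 159 (8.29%), against 0.258%. The lengths 45, 54, 99, 2 × 54 and 3 × 54 bases, where 99 is the sum of 45 and 54, together covered 780 collagen exons (40.7%), against 3.04% in other genes. In collagens 1332 exons (69.4%) started and ended on a codon boundary, against 22.5% in other genes. Of the 1094 internal coding exons of 54 bases in the chosen transcripts of all coding genes, 469 (42.9%) lay in the 44 collagens. Without the fibrillar genes the 54-base share was 12.7% and that of the 5 lengths 22.4%, to be set beside the pooled 0.402% and 3.04%. As medians over the 41 collagen genes with an internal coding exon, fibrillar genes included, these shares were 9.09% and 25.6%. The median in other genes was 0% for both. Other genes had a median of 6 coding exons, which limits what a median of 0% can show.

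**Figure D1:**
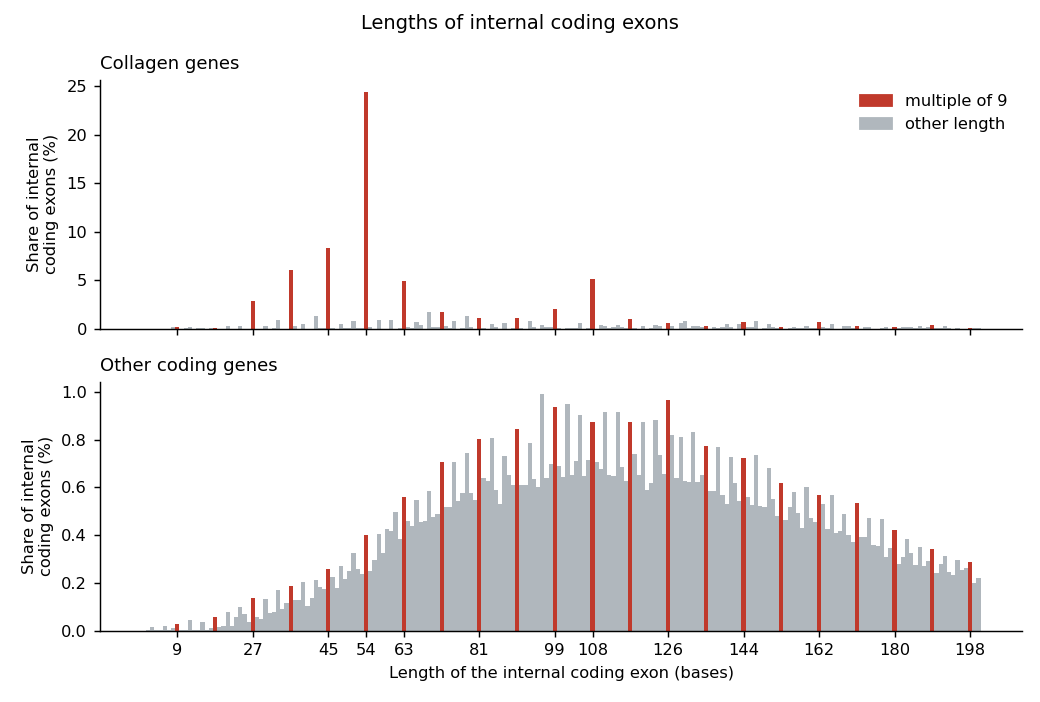
Share of internal coding exons (y, percent) at each length from 1 to 200 bases (x), for collagen genes above and other coding genes below, with multiples of 9 in red and separate y scales. In collagens the bar at 54 bases reaches 24.5% and the bars at 45, 36, 2 × 54 and 63 bases stand next, while no length exceeds 1% in the other genes.

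After 54 and 45 bases, the commonest lengths in collagens were 36 bases (117 exons), 2 × 54 bases (99 exons), 63 (94 exons), 27 (55 exons), 99 (39 exons) and 72 (34 exons). All of these are multiples of 9, and the first length in the order that is not was 69 bases, with 33 exons. In other coding genes the commonest lengths were 96 bases (1542 exons) and 126 bases (1502 exons). The median exon was 60 bases long in collagens and 124 bases long in other genes. A multiple of 3, which leaves the reading frame unchanged when an exon is skipped, was found in 86.9% of collagen exons, against 40.3% of the others. Among the exons that are multiples of 3, 73.3% were multiples of 9 in collagens, against 34.0% in other genes. Col8a1, Col8a2, Col10a1 and Col26a1 had no exon of 54 bases. No gene outside the collagens had more than 3 of them (Phka2), and 23 of the 44 collagens did.

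Fibrillar genes encode the chains of the banded fibrils. Their internal exons were multiples of 9 in 525 of 626 cases (83.9%), and the range over the 11 genes was between 76.6% in Col5a1 and 90.0% in Col1a2. Exons of 54 bases made up 48.7% (305 exons) and exons of 45 bases 11.2% (70 exons), and each gene had between 21 and 33 exons of 54 bases and between 4 and 9 of 45. The 5 lengths built from 45 and 54 covered 78.3% (490 exons). Of the 525 multiples of 9, 524 started on a codon boundary. In class order, the fibrillar share of exons on codon boundaries (92.7%) stood above the multiplexins (75.3%), the anchoring and other group (71.7%), the FACIT genes (65.4%), the transmembrane genes (61.4%), the beaded filament genes (57.8%) and the basement membrane genes (34.2%).

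**Figure D2:**
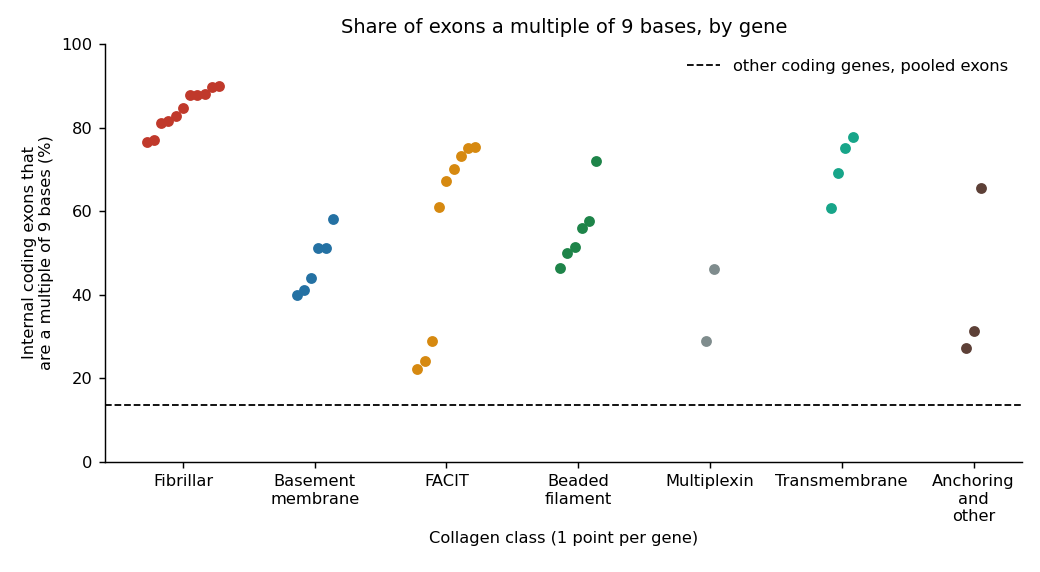
Share of internal coding exons that are a multiple of 9 bases (y, percent) for each collagen gene (1 point each) by class (x), with the pooled share in other coding genes as a dashed line at 13.7%. The 11 fibrillar genes sit between 76.6% and 90.0%, the 6 basement membrane genes between 40.0% and 58.1%, and the 9 FACIT genes fall apart into 3 between 22.2% and 28.9% and 6 between 61.1% and 75.4%. The 3 network genes have no internal coding exon and no point.

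Col1a1 and Col1a2, the chains of type I collagen of bone, skin and tendon, lie at chr11:94936224-94953042 (plus strand) and chr6:4505618-4541543 (plus strand). Col1a1 had 51 exons, all coding, in a span of 16819 bases, and Col1a2 had 52 in 35926 bases. In Col1a1, 43 of 49 internal exons were multiples of 9, with 21 exons of 54, 5 of 45, 5 of 99, 9 of 2 × 54 and 1 of 3 × 54 bases. The lengths of its coding exons 7 to 19 were 45, then 54 in a row of 5 exons, then 45, 54, 45, 54, 99, 45 and 99, and Col1a2 had the same lengths at its coding exons 7 to 19. Across both genes 42 internal exons were identical in order and length, and at 1 place an exon of 2 × 54 bases in Col1a1 stood against a pair of 54-base exons in Col1a2. Col2a1 (chr15:97975602-98004724, minus strand) had 54 exons in 29123 bases, and 44 of 52 internal exons were multiples of 9. Col3a1, the chain of type III collagen of vessels and skin (chr1:45311538-45349706, plus strand), had 51 exons in 38169 bases, and 43 of 49 were multiples of 9.

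The fibrillar genes held a long stretch of neighbouring exons that all start on a codon boundary and are all multiples of 9, whose protein sequence was not read here. In Col1a1 it ran over 41 exons, coding exons 7 to 47, and 996 codons. It covered 43 exons and 1014 codons in Col1a2, 42 exons and 996 codons in Col2a1, and 42 exons and 999 codons in Col3a1. In Col5a2 it covered 42 exons and 996 codons. Col5a1, Col5a3, Col11a1 and Col11a2, chains of the type V and XI collagens that join fibrils as minor parts, had 47 or 48 exons in the stretch and 993 codons each. The stretch was shorter in Col24a1 and Col27a1, with 38 exons and 693 codons in each, and in both genes the next exon was 57 bases long, which is a multiple of 3 and not of 9. Multiples of 9 on codon boundaries resumed after that exon in both. Within the stretches of the 11 genes, all multiples of 9 by definition, 469 of 477 exons (98.3%) had 1 of the 5 lengths built from 45 and 54 bases. In other coding genes 4718 of 21270 multiples of 9 had 1 of these lengths. The other internal exons of the fibrillar genes numbered between 7 and 21 in a gene, 149 in all. Of these, 21 had 1 of the 5 lengths, 27 were other multiples of 9, and 101 were no multiple of 9. Exons of the last kind lie outside a stretch by its definition. The last coding part was 147 bases long in 9 of the 11 genes, and the exon before it was 243 bases long in 4 genes, namely Col1a1, Col1a2, Col2a1 and Col3a1.

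**Figure D3:**
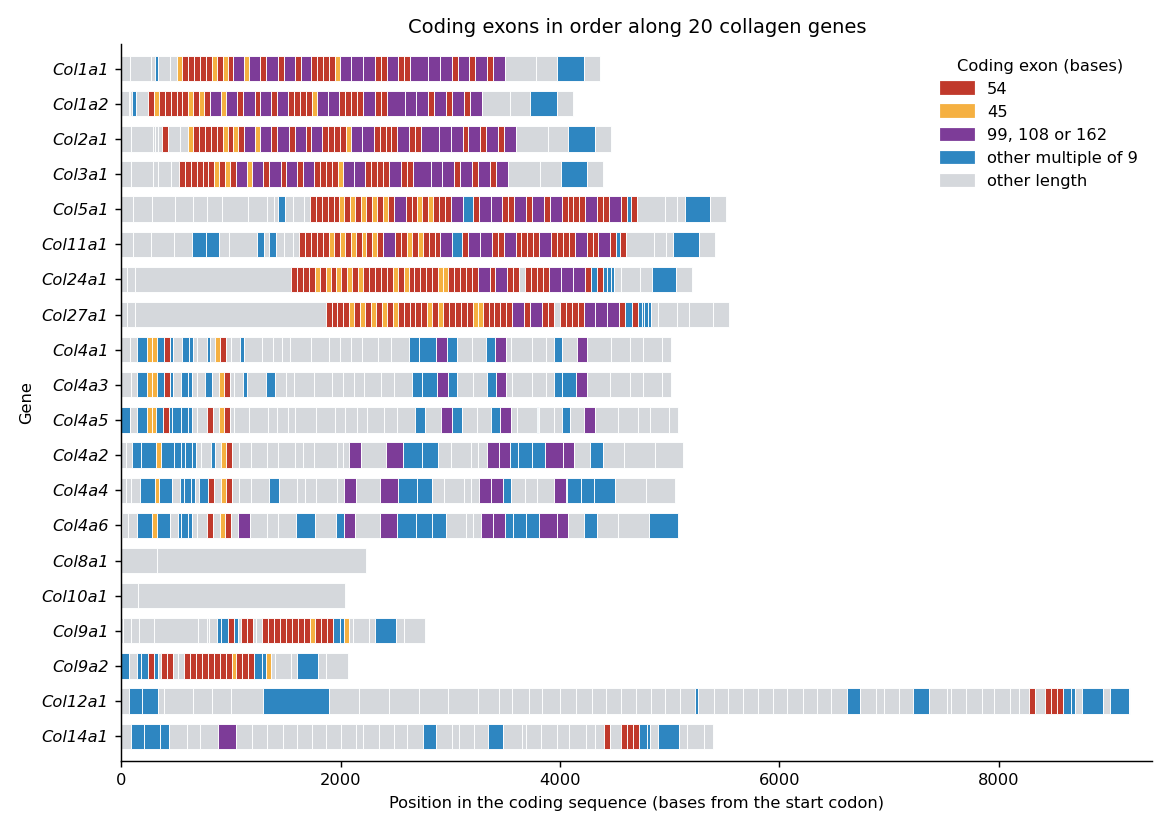
Coding exons of 20 collagen genes (rows) in order along the coding sequence (x, bases from the start codon, first and last coding parts included), coloured by length class. The first 8 rows are fibrillar genes with a dense middle stretch of 54, 45 and summed lengths, the next 6 are basement membrane genes with mixed lengths, and they are followed by 2 network genes of 2 coding exons each and 4 FACIT genes.

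The order of exon lengths split the fibrillar genes into groups when internal exons were aligned so as to match as many identical lengths as possible. Because exons of 54 bases are frequent, part of any such match can come from their number alone, and the shares are given as a description. Col1a1, Col1a2, Col2a1, Col3a1 and Col5a2 shared between 81.6% and 90.4% of the shorter gene's exons, with unbroken matching runs of between 25 and 43 exons. Col5a1, Col5a3, Col11a1 and Col11a2 shared between 81.2% and 87.5% among themselves, in runs of up to 53 exons. Col24a1 and Col27a1 shared 94.8%, with 50 exons in an unbroken run. Between the Col1a1 group and the Col5a1 group the share was between 61.5% and 69.4%, and no matching run was longer than 9 exons. The type V genes thus divided, with Col5a2 beside the type I genes and Col5a1 and Col5a3 beside the type XI genes.

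Basement membrane genes encode the type IV chains. Multiples of 9 made up 134 of 284 internal exons (47.2%), exons of 54 bases 4.23% (12 exons) and exons of 45 bases 5.28% (15 exons). The 5 lengths built from 45 and 54 bases, with both of these included, made up 19.0% (54 exons). Among the type IV exons, 97 (34.2%) started and ended on a codon boundary, against 22.5% in other coding genes and 92.7% in fibrillar genes. Of the same 284 exons, 152 (53.5%) started after the first base of a codon, against 32.3% in other coding genes. Of the 134 multiples of 9, 65 (48.5%) started on a boundary and 69 (51.5%) after the first base of a codon, against 55.5% and 31.3% of the multiples of 9 in other coding genes. In fibrillar genes that second frame held 1 of 525. In Col4a1, Col4a3 and Col4a5 the coding exons 1 to 19 all started on a boundary, and in Col4a2, Col4a4 and Col4a6 coding exons 3 to 17 did. After that block 25 of 33 exons in Col4a1 started after the first base of a codon, as did 26 of 30 in Col4a2. The exon of Col4a6 printed above has this second frame, with ga as its opening letters and g as its closing letter.

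Within type IV, Col4a1 had 52 coding exons in 114404 bases, Col4a3 52 in 135139, Col4a5 53 in 213817, Col4a2 47 in 136483, Col4a4 47 in 136127 and Col4a6 45 in 308674. Coding lengths lay close together, between 5010 bases in Col4a1 and Col4a3 and 5124 bases in Col4a2. The share of multiples of 9 was 40.0% in Col4a1, 41.2% in Col4a5 and 44.0% in Col4a3, against 51.1% in both Col4a2 and Col4a4 and 58.1% in Col4a6. Col4a1 and Col4a2 form the heterotrimer found in nearly all basement membranes, and Col4a3, Col4a4 and Col4a5 form the one of the kidney glomerulus. By exon-length order Col4a1, Col4a3 and Col4a5 shared between 68.0% and 82.0% of their exons, and Col4a2, Col4a4 and Col4a6 between 53.3% and 69.8%, against between 20.9% and 26.7% across these 2 groups. The longest stretch of boundary-starting multiples of 9 had between 3 and 9 exons in these genes and at most 195 codons, in Col4a2. Exons of only 9 bases, a single repeat unit, occurred 2 times in Col4a5, as neighbours, and 1 time in Col4a4.

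The type IV genes also lay in pairs that start next to each other and run apart. On build mm10, Col4a1 runs on the minus strand from position 11312826 of chromosome 8 and Col4a2 on the plus strand from position 11312805, so that the annotated first exons shared 22 bases. Col4a4 runs on the minus strand from 82586849 of chromosome 1 and Col4a3 on the plus strand from 82586921, with 71 bases between them. Col4a6 starts at 141474076 of chromosome X on the minus strand and Col4a5 at 141475419 on the plus strand, with 1342 bases between them. This pair is outside the limit of 1000 bases used to count facing starts and was not counted. With that limit 4 of 44 collagens (9.09%) faced the start of another coding gene, against 9.52% of other coding genes (1995 of 20948), so facing starts as such were about as frequent in collagens as elsewhere. In all 3 pairs 1 gene belongs to the group of Col4a1 and the other to the group of Col4a2 by exon order. The nearest other coding gene start facing a collagen was that of Rdh8, at 3426 bases from Col5a3.

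**Figure D4:**
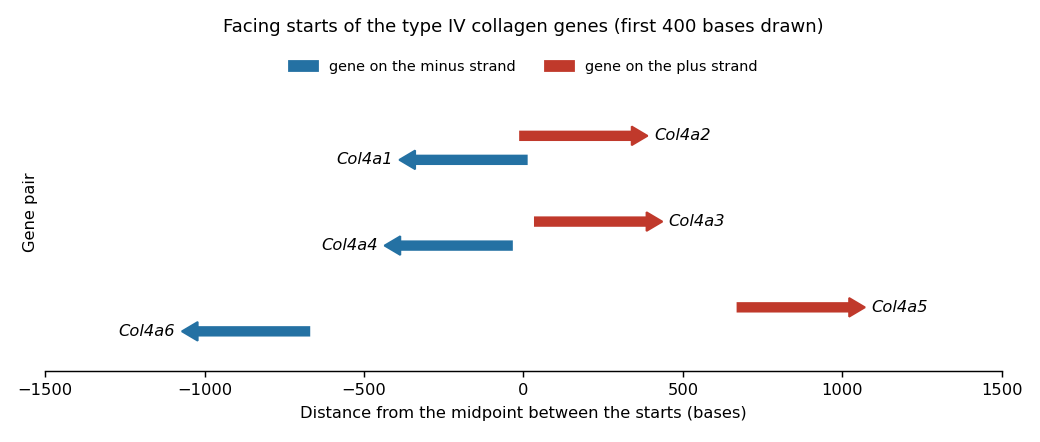
The 3 facing pairs of type IV collagen genes, drawn by distance in bases (x) from the midpoint between their annotated first bases, with minus-strand genes in blue and plus-strand genes in red and the first 400 bases of each shown. Col4a1 and Col4a2 share 22 bases, Col4a4 and Col4a3 are 71 bases apart, and Col4a6 and Col4a5 are 1342 bases apart.

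The start windows of these genes are shown because they hold the facing starts of Col4a1 and Col4a2 and of Col4a4 and Col4a3, and, for Col4a6 and Col4a5, each gene's own start without that of its partner. They are RefSeq windows of build GRCm38.p6, from 250 bases before to 50 bases after the annotated start, printed 5′ to 3′ on the strand of the gene. Capitals mark the letters CCAAT, known as the CCAAT box, and their reverse complement. The GC box, with the letters GGGCGG, is marked in the same way on both strands. The windows are Col4a1 at chr8:11312777-11313076 (minus strand), Col4a2 at chr8:11312555-11312854 (plus strand), Col4a4 at chr1:82586800-82587099 (minus strand), Col4a6 at chrX:141474027-141474326 (minus strand) and Col4a5 at chrX:141475169-141475468 (plus strand).
Col4a1 window: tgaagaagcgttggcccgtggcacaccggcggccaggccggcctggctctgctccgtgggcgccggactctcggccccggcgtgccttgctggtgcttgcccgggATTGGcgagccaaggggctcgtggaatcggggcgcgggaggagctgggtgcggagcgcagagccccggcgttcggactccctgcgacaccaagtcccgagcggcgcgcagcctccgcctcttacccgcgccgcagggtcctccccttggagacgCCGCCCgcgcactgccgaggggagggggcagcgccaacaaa
Col4a2 window: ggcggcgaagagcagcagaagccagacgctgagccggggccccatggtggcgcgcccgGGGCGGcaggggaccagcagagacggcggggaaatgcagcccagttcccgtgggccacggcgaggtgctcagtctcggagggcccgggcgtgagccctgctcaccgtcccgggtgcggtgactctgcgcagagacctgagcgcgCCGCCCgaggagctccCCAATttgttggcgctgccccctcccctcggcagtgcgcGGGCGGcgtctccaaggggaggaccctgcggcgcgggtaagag
Col4a4 window: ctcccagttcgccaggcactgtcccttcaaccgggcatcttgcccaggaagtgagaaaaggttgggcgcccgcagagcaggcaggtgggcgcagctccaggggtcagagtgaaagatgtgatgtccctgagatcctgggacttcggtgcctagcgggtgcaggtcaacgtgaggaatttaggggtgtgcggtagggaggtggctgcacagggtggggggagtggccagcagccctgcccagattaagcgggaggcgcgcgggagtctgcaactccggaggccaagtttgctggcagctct
Col4a6 window: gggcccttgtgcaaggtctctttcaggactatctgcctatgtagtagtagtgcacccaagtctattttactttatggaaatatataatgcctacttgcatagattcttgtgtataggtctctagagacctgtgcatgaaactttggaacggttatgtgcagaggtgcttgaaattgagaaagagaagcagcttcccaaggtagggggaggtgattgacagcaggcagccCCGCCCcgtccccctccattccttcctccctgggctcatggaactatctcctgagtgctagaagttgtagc
Col4a5 window: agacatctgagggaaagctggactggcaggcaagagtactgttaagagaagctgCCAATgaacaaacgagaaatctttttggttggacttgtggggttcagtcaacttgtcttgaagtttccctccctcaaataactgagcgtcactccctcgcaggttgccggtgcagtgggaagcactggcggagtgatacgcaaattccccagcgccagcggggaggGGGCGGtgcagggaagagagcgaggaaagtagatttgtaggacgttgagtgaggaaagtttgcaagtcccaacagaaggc
The windows of Col4a1 and Col4a2 shared 78 bases, and the GGGCGG at chr8:11312812-11312817 lay in both and inside the 22 shared bases. Each of these windows held 1 CCAAT, at different positions outside those 22 bases, and the Col4a2 window held GGGCGG at 3 positions in all. The first base of Col4a3 fell on letter 179 of the Col4a4 window, which held neither motif. The Col4a6 window held 1 GGGCGG, and the Col4a5 window 1 of each motif. GC content was 74.0% for Col4a1 and 73.7% for Col4a2, with 37 and 33 CG pairs. It was 63.3% for Col4a4, 52.7% for Col4a5 and 48.3% for Col4a6, against a median of 52.7% over all windows. Windows were found for 35 of the 44 collagens (38 windows), and GGGCGG on either strand was present in 23 of the 38 (60.5%), against 35.7% of all 32851 windows. CCAAT was present in 13 (34.2%), against 37.4% of all windows, and TATAAA, the letters of the TATA box, in 5 (13.2%), against 13.6%. Matches were counted anywhere in the window. TATAAA began 32 bases before the start in Col10a1, and between 91 and 237 bases before it in Col3a1, Col11a2, Col13a1 and Col17a1. A match is a description and not evidence of binding.

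Network genes encode short chains that assemble into hexagonal lattices. Col8a1 and Col8a2, the chains of type VIII collagen of the cornea and vessel wall, and Col10a1, the type X chain of hypertrophic cartilage, had 2 coding exons each and no internal one. The coding parts were 328 and 1907 bases in Col8a1, 181 and 1919 in Col8a2, and 154 and 1889 in Col10a1, so nearly all of the coding part lay on a single exon in each. They were also far apart in span, with 130482 bases in Col8a1, 27537 in Col8a2 and 7105 in Col10a1, the shortest of all 44. Col10a1 lay wholly inside Nt5dc1, a gene on the opposite strand.

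FACIT genes had multiples of 9 in 227 of 413 internal exons (55.0%), 54-base exons in 26.4% (109 exons) and 45-base exons in 7.99% (33 exons). The 5 lengths built from 45 and 54 bases, with both of these included, made up 34.9% (144 exons). They fell into 2 kinds. In Col9a1, Col9a2, Col9a3, Col16a1, Col19a1 and Col22a1 between 61.1% and 75.4% of exons were multiples of 9, with the highest share in Col22a1. In Col12a1, Col14a1 and Col20a1 the shares were 22.2%, 28.9% and 24.2%. Col9a1, Col9a2 and Col9a3, the chains of type IX collagen on cartilage fibrils, had 14 exons of 54 bases each, and Col9a1 and Col9a2 matched in 29 internal exons (96.7% of the shorter gene), of which 21 were in an unbroken run. Col12a1 and Col14a1 encode long chains of tendon and skin, made mostly of fibronectin type III and von Willebrand factor A domains. In Col12a1 there were 4 exons of 273 bases and 5 neighbouring pairs that sum to 273 bases, such as 143 and 130, and in Col14a1 there were 2 such pairs. Near their ends Col12a1, Col14a1 and Col20a1 had the same 5 exons in a row, of 54, 54, 54, 72 and 36 bases, which was the longest boundary-starting stretch of multiples of 9 in each (90 codons). By exon order the type IX genes and these 3 genes shared between 16.7% and 30.0%.

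Beaded filament genes encode the type VI chains around muscle fibres and other cells. They had multiples of 9 in 112 of 206 exons (54.4%), between 46.3% in Col6a3 and 72.0% in Col6a2. The commonest length was 63 bases (43 exons, 20.9%), ahead of 54 bases (17 exons, 8.25%). Col6a3, Col6a4, Col6a5 and Col6a6 carried 11, 7, 8 and 7 internal exons of 500 bases or more, beside 0 in Col6a1 and 1 in Col6a2. The long chains are known for their many von Willebrand factor A domains outside the helix. These 4 long genes shared unbroken runs of between 18 and 22 exons of equal length. Multiplexin genes had a lower share, with 29 of 77 exons (37.7%). The share was 46.2% (18 of 39) in Col18a1, whose end encodes the angiogenesis inhibitor endostatin, and 28.9% (11 of 38) in Col15a1.

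Transmembrane collagens had multiples of 9 in 106 of 153 exons (69.3%), the next highest class after the fibrillar one, but the commonest length was 27 bases (27 exons, 17.6%) and 54 bases made up only 9.15% (14 exons). The 27-base exons were commonest in Col13a1 (10 exons) and Col23a1 (8 exons), while Col25a1 had 8 exons of 45 bases and 6 of 27, and Col17a1 had 8 of 36 and 3 of 27. The range ran between 60.8% in Col17a1 and 77.8% in Col23a1. Col13a1, Col23a1 and Col25a1 each had an exon of 8 bases near the start, the only 3 of that length in collagens, and each ended in coding parts of 39 and 3 bases. Col17a1, the hemidesmosome collagen of the skin, differed in frame, since 51 of its 51 internal exons started after the first base of a codon, and none started and ended on a codon boundary. Among genes with at least 20 internal coding exons, 9 of 1808 outside the collagens also kept all of them in a single frame, and among the 40 collagens of that size Col17a1 was the only one. Multiples of 9 made up 60.8% of its exons all the same (31 of 51).

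Anchoring and other collagens had multiples of 9 in 89 of 159 exons (56.0%). Col7a1, at chr9:108953586-108984875 on the plus strand, had the most exons of all collagens, 119 with 118 coding, packed into 31290 bases with a median intron of 112 bases. Its share was 65.5% (76 of 116), with 26 exons of 36 bases and only 6 of 54. Col26a1, with 13 exons, had 27.3% (3 of 11), and Col28a1 had 31.2% (10 of 32). In Col28a1 an exon of 69 bases, a multiple of 3 and not of 9, was repeated 15 times. The commonest length in this group was 36 bases (28 exons, 17.6%), and 26 of these lay in Col7a1 alone, with 1 each in Col26a1 and Col28a1.

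Many exons were found in short and in long spans. The median collagen had 48 exons, 47 of them coding, 4539 coding bases and a span of 110389 bases, against 7 exons, 6 coding exons, 1218 coding bases and a span of 16243 bases in other coding genes. Fibrillar genes had a median of 60 coding exons (between 51 and 67) and spans between 16819 bases in Col1a1 and 259540 in Col24a1. Basement membrane genes had a median of 49.5 coding exons and spans between 114404 and 308674 bases. FACIT genes had between 32 and 69 coding exons, and spans between 15760 bases in Col9a2 and 329755 in Col19a1. The longest span of the 44 was 419039 bases in Col25a1, a transmembrane collagen with 38 coding exons. The median intron was 756 bases in collagens and 1341 in other genes, 136 bases in Col1a1 and 2888 in Col24a1.

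**Figure D5:**
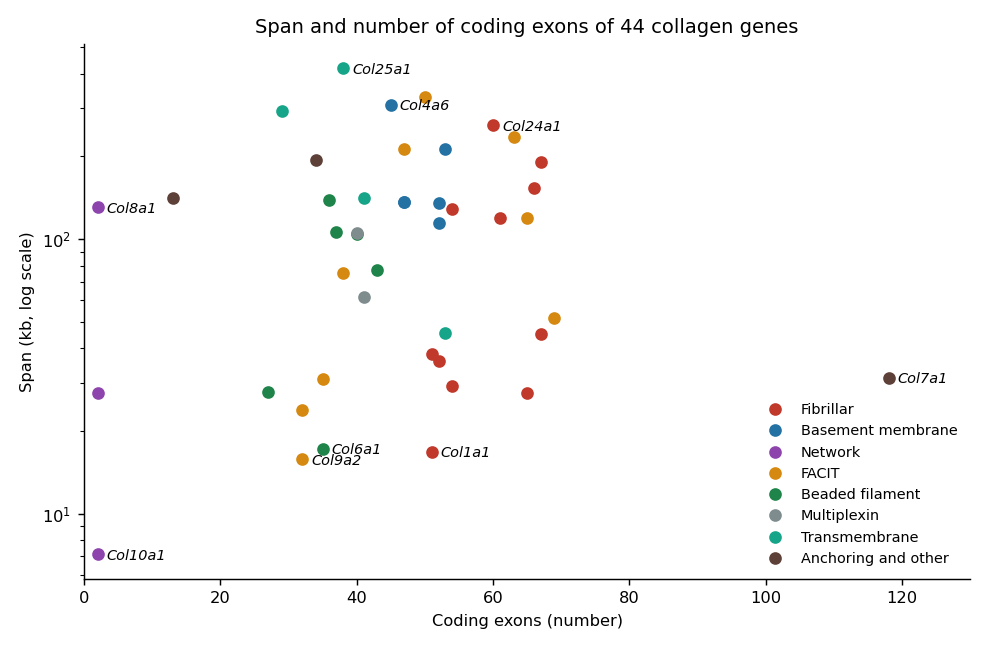
Number of coding exons (x) and span from first to last annotated base (y, kb, log scale) of the 44 collagen genes, coloured by class. Col7a1 stands at 118 coding exons within 31290 bases, Col25a1 has the longest span with 38 coding exons, and the 3 network genes have 2 coding exons each.

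The collagens lay on 15 of 21 chromosomes, with 7 on chromosome 1 and 6 on chromosome 9. Within 1 Mb of each other 10 neighbouring pairs were found, involving 18 genes, of which 3 pairs were head to head, 2 tail to tail and 5 on the same strand. All 3 head-to-head pairs were the type IV pairs above. The tail-to-tail pairs were Col9a1 with Col19a1, 4944 bases apart, and Col3a1 with Col5a2, 24624 bases apart. The same-strand pairs included Col6a6, Col6a5 and Col6a4 in a row on chromosome 9 and Col6a2 with Col6a1, 85161 bases apart on chromosome 10. The end of Col9a3 shared 237 bases with the end of Tcfl5 on the opposite strand.

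Annotated microRNA genes lay inside Col7a1 and Col27a1. The RefSeq hairpin of Mir711 (chr9:108969922-108970003, plus strand) covered the whole of coding exon 62 of Col7a1, the exon printed above, plus 46 bases of the introns on either side. Its hairpin is shown with the exon in capitals, and the mature sequences with their seeds (bases 2 to 8) in capitals.
Mir711 hairpin: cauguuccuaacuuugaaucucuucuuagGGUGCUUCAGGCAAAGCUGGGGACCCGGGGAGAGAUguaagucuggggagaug
mmu-miR-711: gGGACCCGgggagagauguaag
mmu-miR-455-5p: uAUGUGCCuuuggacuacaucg
mmu-miR-455-3p: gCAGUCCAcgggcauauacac
Of the 22 bases of mature miR-711, 17 were exon and 5 intron bases, so a sequence with glycine repeat codons and a microRNA are annotated on the same strand at the same place. The miR-455 hairpin gene lay in intron 10 of Col27a1, and none of its mature bases were exonic. The 3 mature microRNAs had 3 different seeds.

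Of the 44 genes, 27 had 1 transcript row and 17 had more, which gave 18 further transcripts, 17 of them coding. Of these, 16 had another coding length than the chosen transcript, and in 4 cases the difference was a multiple of 9. Every difference was a multiple of 3. That has to hold wherever both coding lengths are whole codons, as they were in all 44 chosen transcripts, so it shows nothing particular to collagens. In 5 genes a shorter transcript differed from the chosen one only by leaving out whole internal exons, 10 in all, and rows with further changes were not counted. The lengths of those 10 exons were all multiples of 3 and 5 were multiples of 9. Over all internal collagen exons these shares were 86.9% and 63.7%. Where a single exon is left out and both coding lengths are whole codons, its length has to be a multiple of 3. In Col2a1 the exon left out was coding exon 2, of 204 bases. It encodes a cysteine-rich domain of the procollagen and is alternatively spliced during cartilage formation. In Col13a1 they were exons of 99, 66 and 27 bases, in Col25a1 of 36 and 27, in Col17a1 of 111, and in Col6a3 of 600, 603 and 618. Col9a1 had a second start 17593 bases downstream with 32 coding exons in place of 38, and Col18a1 another start 52825 bases upstream. An exon of Col9a3 was 189 bases long in the chosen row and 72 in the other, a difference of 117 bases, which is 13 units of 9, and 72 is the length at the same place in Col9a1 and Col9a2.

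Lists of related genes were read in the same way. The 31 enzymes, chaperones and proteases that modify, fold, process or cross-link collagen, such as P4ha1 (a prolyl hydroxylase), Serpinh1 (a collagen chaperone) and Lox (a cross-linking oxidase), had multiples of 9 in 45 of 378 internal exons (11.9%), 0 exons of 45 bases and 2 of 54 (0.529%), and 20.6% on codon boundaries. Of 29 other proteins with a collagen-like stretch, 24 had an internal coding exon, and 71 of 144 exons (49.3%) were multiples of 9. Exons of 54 bases made up 3.47% of these (5 exons) and exons of 45 bases 5.56% (8 exons). Only 10.4% of them (15 exons) started and ended on a codon boundary, and 72.2% started after the first base of a codon, against 32.3% in other coding genes. The members differed widely. In Marco, a scavenger receptor of macrophages, 12 of 15 exons were multiples of 9, in Colq, the collagenous tail of acetylcholinesterase, 9 of 15, and in Sftpd, a lung surfactant protein, 4 of 5. At the other end were Colec12 with 1 of 8, Eda and Emilin2 with 1 of 6 each, C1qtnf3 with 0 of 4 and Sftpa1 with 0 of 2. Among genes with at least 20 internal coding exons, at least 50% were multiples of 9 in 30 of 40 collagens, against 9 of 1808 other genes.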

How the data were processed

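The input was a 12-column BED annotation of the whole series, on build mm10, with 50727 rows and no column for a library. The authors deposited a score of 0 for every row, so the table holds no measurement per library and sequencing depth is unknown. The submitters' processing notes name mm10, FastQC, Bowtie2, deepTools and bedtools, without versions or roles. The origin of the annotation is not stated in the sources used here. Positions are counted from 1. Rows were read with Python 3.11.15, and figures drawn with matplotlib 3.10.9. For each symbol on an assembled chromosome the transcript with the longest coding part was used, then the one with most exons. The coding part is the thick interval of the row, and frame is the number of coding bases before an exon, modulo 3. Facing starts are outermost first bases on opposite strands, minus gene to the left, at most 1000 bases apart or overlapping. Parsing and pairing were tested on simulated data. All 44 collagens lay inside the RefSeq gene of the same symbol. Every collagen was to be named or counted, with full values for the type I to IV, VIII, X, Col9a1, Col12a1 and Col14a1 genes and for the highest and lowest of each class. The members, lists and measures were chosen with earlier results of these data known. Alternatives were all transcripts, first and last coding exons included, genes with at least 20 coding exons, medians over genes, other distance limits and no fibrillar genes. Protein sequences were not used here.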

Additional observations from a re-analysis of the deposited data

How the results depend on the processing

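No paired analysis was possible because the annotation holds no value for any library. Every share below kept its order, collagens above other genes, under each alternative run. Counting every coding part gave multiples of 9 of 61.3% in collagens, against 14.0% in other genes, and in other genes 0.290% of 45 bases and 2.90% of the 5 lengths built from 45 and 54. As a median over genes, other genes had 9.09% multiples of 9, and 0% of 45 bases, of 54 bases and of the 5 lengths, while collagens had 6.67% of 45 bases, 9.09% of 54 and 25.6% of the 5 lengths. Some class shares also moved as medians over genes. Multiples of 9 became 67.2% in FACIT genes, against 55.0% pooled, and 31.2% in the anchoring and other group, against 56.0%, so these classes changed order. In FACIT genes the 54-base share became 31.2%, against 26.4%, and that of the 5 lengths 44.4%, against 34.9%. Other genes with at least 20 coding exons had 14.0% multiples of 9 and 24.9% on codon boundaries. Without the fibrillar genes, an alternative chosen after seeing the data, collagens had 53.9% multiples of 9, 6.89% of 45 bases, 12.7% of 54 bases, 22.4% of the 5 lengths and 58.2% on codon boundaries, so the 54-base share rests to a large part on that class. A limit of 5000 bases counted 3 head-to-head collagen pairs, against 2 at 1000 and at 500 bases. The planned reading of glycine codons at every exon start was not run, since no protein sequences were used here. Exon lengths depend on the annotation, and depth sets no limit on them.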

Other observations

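The genes named here were chosen after their values were seen. The 9 genes outside the collagens with at least 20 internal coding exons and at least 50% multiples of 9 included Skint6 (91.3%), Skint5 (91.1%), Scube3 (70.0%), Scube2 (60.0%), Csn1s1 (56.7%), Ank3 (55.0%), Scube1 (52.4%) and Fbn2 (50.8%). Of the 9 that kept all internal exons in a single frame, Cast and Csn1s1 kept the codon boundary, and Eln, Trdn, Skint5, Skint6 and the 3 Scube genes kept the frame that Col17a1 has.

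Outside the assembled chromosomes 8 further rows carried a collagen symbol, from Col11a2, Col16a1 and Col4a6. The exon lengths of 7 of them were identical to those of a row on an assembled chromosome, and the remaining one, of Col4a6, had 43 exons and 5013 coding bases, against 45 exons and 5076 coding bases on chromosome X.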
